A study of Mus musculus with 6 samples.

Results

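A set of 10 genes that mark the stromal cells of bone marrow or encode their secreted factors was followed in irradiated mouse femur: Lepr, Kitl, Il7, Foxc1, Ebf3, Csf1, Flt3l, Nes, Pdgfra and Pdgfrb. They were chosen by name, with earlier results of these data known. Each of the 10 was found once among the 43346 genes of the deposited count table. The animals were C57BL/6 mice, an inbred laboratory strain, aged 4 months. In the radiated group, 5 mm of the distal metaphysis of the right femur received 24 Gy of X-rays in 1 session, at 6.6 Gy per minute, where the gray (Gy) measures absorbed dose. The non-radiated group was the left, contralateral femur, so both groups came from animals with an irradiated leg. Bone pieces with their marrow were cut from the end of the femur on day 21, a day chosen ahead of the bone loss seen on day 28 in the series' design text, and 3 libraries per group were sequenced. The labels give no transgene, no sorting of cells and no statement on pooling, and they do not say which leg pairs came from which mouse.

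Blood formation in marrow depends on a thin network of perivascular stromal cells. Leptin receptor-positive cells, which are also called CXCL12-abundant reticular cells, surround the sinusoids and supply stem cell factor (Kitl), interleukin-7 (Il7) and macrophage colony-stimulating factor (Csf1); they also give rise to osteoblasts and marrow fat cells in the adult. The transcription factors Foxc1 and Ebf3 keep these cells in their niche state, and Pdgfra, Pdgfrb and nestin (Nes) are used to mark stromal and mural cells around vessels.

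Total gene counts ran from 34034251 to 48708383 per library, and all 10 genes passed the filter on low counts, with 84 to 4342 counts in a library. Levels are given as CPM, which is a gene's count per 1000000 counts of the library after scaling of the libraries by the trimmed mean of M-values (TMM), so each change is relative to the bulk of genes. Non-radiated library 2 stood apart, with 32.9% of its counts in the single row AY036118 against 0.321% to 5.61% in the other libraries. Summed over 10 osteoblast genes, the level was 4650 to 7010 CPM in non-radiated and 3460 to 4390 CPM in radiated femur. Most of each sum came from 1 collagen gene, Col1a1. It was at 5430, 4080 and 6180 CPM in non-radiated libraries and at 3760, 2980 and 3500 CPM in radiated ones. Skeletal muscle transcripts differed between libraries. The 12 muscle genes listed summed to 166 to 342 CPM in the non-radiated libraries and to 753, 2480 and 196 CPM in radiated libraries 1, 2 and 3.

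The niche genes moved in both directions. Csf1, Il7 and Nes rose, Lepr and Pdgfra fell, and Kitl, Foxc1, Ebf3, Flt3l and Pdgfrb did not pass the test. A gene is called here when its Benjamini-Hochberg adjusted p in edgeR's quasi-likelihood test was under 0.05, adjusted over the 18757 genes tested. By that rule 5 of 10 niche genes were called, beside 7.80% of all genes tested. Of these 3 were higher, beside 4.56% of all genes, and 2 lower, beside 3.24%. The median log2 change of the 10 was -0.03, and that of all genes was 0.00. For 7 of the 10 the values of the groups did not overlap, beside 25.9% of all genes tested.

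**Figure D1:**
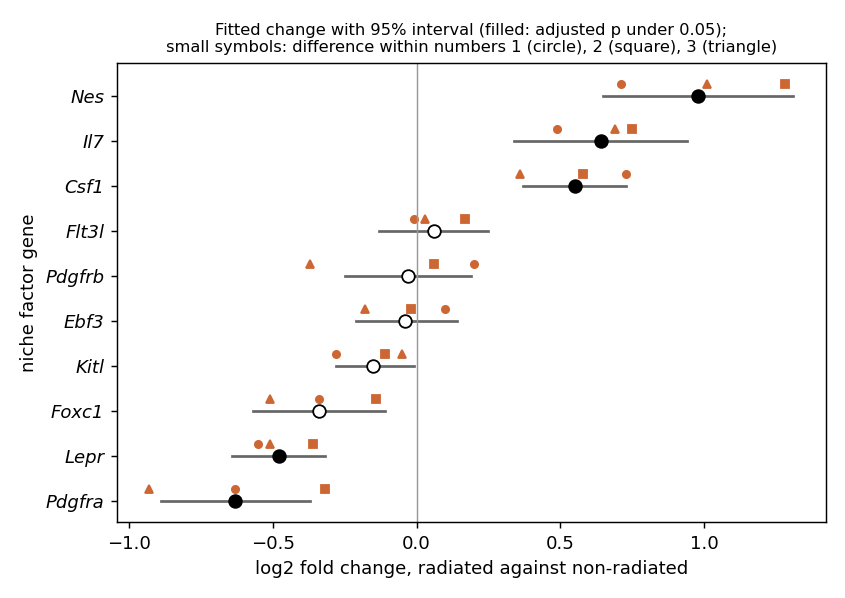
Log2 fold change (horizontal axis) of each niche gene (vertical axis) in radiated against non-radiated femur, with its 95% interval from edgeR; filled points are called genes, and the small symbols are the differences between libraries of the same number. Nes, Il7 and Csf1 lie to the right of 0, Pdgfra and Lepr lie to the left, and Flt3l, Pdgfrb and Ebf3 lie close to 0.

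Promoter sequences are given here for 4 called genes, Csf1 and Nes among those that rose and both of those that fell. RefSeq's promoter table (build GRCm38.p6) held 8 of the 10 genes, all but Il7 and Pdgfrb. It had 2 entries for Lepr, and only the one nearest the start of the gene was printed and searched. The 250 bases before the start site are printed 5′ to 3′ on the gene's strand, and capitals mark matches on either strand to any of 7 motifs. The motifs were the TATA box (TATAAA), the CCAAT box (CCAAT), the GC box (GGGCGG), the AP-1 motif (TGANTCA), the EBF palindrome (TCCCNNGGGA), a forkhead motif (GTAAACA) and the NF-kappaB motif.
Csf1 (chr3:107760470-107760719, minus strand): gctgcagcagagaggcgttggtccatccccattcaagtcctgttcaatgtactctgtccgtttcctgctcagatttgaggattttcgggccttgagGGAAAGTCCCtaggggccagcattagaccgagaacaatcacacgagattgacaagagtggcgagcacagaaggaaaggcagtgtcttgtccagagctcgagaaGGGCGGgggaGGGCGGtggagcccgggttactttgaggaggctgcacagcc
Nes (chr3:87970843-87971092, plus strand): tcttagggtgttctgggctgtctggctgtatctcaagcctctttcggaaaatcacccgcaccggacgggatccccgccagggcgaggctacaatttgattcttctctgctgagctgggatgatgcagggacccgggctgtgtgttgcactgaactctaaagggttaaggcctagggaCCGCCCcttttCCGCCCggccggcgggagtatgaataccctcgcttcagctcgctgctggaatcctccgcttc
Lepr (chr4:101717157-101717406, plus strand): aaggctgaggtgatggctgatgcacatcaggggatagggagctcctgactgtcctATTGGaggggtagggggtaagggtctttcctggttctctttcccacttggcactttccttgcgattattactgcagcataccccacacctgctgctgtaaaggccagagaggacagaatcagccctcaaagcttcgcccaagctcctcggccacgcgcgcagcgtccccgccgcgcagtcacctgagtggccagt
Pdgfra (chr5:75152001-75152250, plus strand): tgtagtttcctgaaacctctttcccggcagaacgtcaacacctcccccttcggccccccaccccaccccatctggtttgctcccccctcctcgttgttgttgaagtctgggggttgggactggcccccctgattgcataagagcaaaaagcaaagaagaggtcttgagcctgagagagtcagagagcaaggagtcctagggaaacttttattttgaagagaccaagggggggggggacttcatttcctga
In the Csf1 promoter the capitals are 2 GC boxes and, at 154 to 145 bases before the start, an NF-kappaB match on the opposite strand. The Nes promoter has 2 GC boxes on the opposite strand. The capitals in the Lepr promoter are 1 CCAAT box on the opposite strand, and the Pdgfra promoter has no match to the 7 motifs. The marked matches in these 4 sequences do not overlap matches of another motif. GC boxes were found in 6 of the 8 niche promoters, against 32.7% of 32841 promoters in the table, and NF-kappaB matches in 2 of 8, Csf1 and Foxc1, against 3.9%. In the Foxc1 promoter the NF-kappaB match overlaps a GC box. EBF, forkhead and AP-1 motifs had 0 matches in the 8, against 0.78%, 3.17% and 6.75% of all promoters. The GC content was 56.4% for Csf1, 58.8% for Nes, 58.4% for Lepr and 54.4% for Pdgfra, against a median of 52.4%. The other promoters searched, those of Kitl, Foxc1, Ebf3 and Flt3l, all had GC boxes and came from genes not called. Their GC content was 69.2%, 70.8%, 80.0% and 53.6%, in that order. A match describes letters in this window and says nothing of binding.

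Lepr, the leptin receptor gene that defines the main niche stromal cell (ENSMUSG00000057722, mm10 chromosome 4, 101717404 to 101815352), was at 116, 98.2 and 102 CPM in non-radiated libraries 1, 2 and 3. In radiated libraries 1, 2 and 3 it was at 79.1, 76.2 and 71.9 CPM. Every radiated value lay below every non-radiated value. The mean went from 105 ± 9.09 to 75.8 ± 3.63 CPM (SD, n = 3 each), a log2 change of -0.48 (SE 0.07, edgeR's adjusted p 0.00381), which is 0.719 times the non-radiated level. The call held in 14 of 15 alternative fits and was lost with library totals alone (adjusted p 0.617), a scaling in which AY036118 enters the library size. In these bulk samples fewer stromal cells and less RNA per cell cannot be told apart.

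Pdgfra encodes a receptor for platelet-derived growth factors that is present on marrow stromal cells, on early bone-forming cells and on connective tissue progenitors (ENSMUSG00000029231, mm10 chromosome 5, 75152291 to 75198204). It stood at 61.3, 48.6 and 58.1 CPM in the non-radiated libraries and at 39.5, 38.9 and 30.5 CPM in the radiated ones. The groups did not overlap, and radiated library 3 was the lowest. The log2 change was -0.63 (SE 0.12, edgeR's adjusted p 0.0112), the largest fall among the 10 genes. This call too was lost with library totals alone (adjusted p 0.298) and kept in the other 14 fits.

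Pdgfrb, the receptor that marks pericytes and most marrow stroma (ENSMUSG00000024620, mm10 chromosome 18, 61045150 to 61085061), did not pass the test. Its values were 66.1, 66.8 and 74.9 CPM in the non-radiated femurs and 76.2, 69.6 and 58.0 CPM in the radiated ones, so the groups overlapped and radiated libraries 1 and 3 fell on opposite sides of the non-radiated range. The fitted log2 change was -0.03, with a 95% interval of -0.25 to 0.19 (edgeR's adjusted p 0.900). The sign was positive with library totals alone and without non-radiated library 3 or radiated library 3.

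The ratio of the receptor genes within a library needs no scaling between libraries. Pdgfra counts were 0.927, 0.728 and 0.775 times those of Pdgfrb in non-radiated libraries and 0.519, 0.560 and 0.525 times in radiated libraries. Every radiated ratio was lower, by a mean of -0.59 on the log2 scale. The two-sided exact permutation p was 0.1, the smallest that 3 against 3 libraries can give, and 0.133 after adjustment over the 8 ratios tested, so no ratio could pass 0.05. Lepr counts relative to Pdgfra were 1.88, 2.02 and 1.76 in non-radiated femurs and 2.0, 1.96 and 2.36 in radiated ones, which overlapped (exact permutation p 0.3).

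Of the transcription factors, Foxc1 (ENSMUSG00000050295, mm10 chromosome 13, 31806691 to 31810643), which maintains the niche state of reticular cells, was at 11.4, 10.4 and 12.7 CPM in non-radiated libraries. The radiated libraries were at 9.03, 9.41 and 8.91 CPM. The groups did not overlap, but the log2 difference of -0.34 (95% interval -0.57 to -0.11) did not pass the test after adjustment (edgeR's adjusted p 0.0835). Its adjusted p stayed between 0.0571 and 0.793 over all settings. Ebf3 (ENSMUSG00000010476, mm10 chromosome 7, 137193673 to 137314445), which is needed to keep marrow cavities free of bone, was at 34.4, 39.1 and 41.4 CPM and then at 36.9, 38.6 and 36.5 CPM. The radiated values of Ebf3 all lay inside the non-radiated range, with a log2 difference of -0.04 and a 95% interval of -0.21 to 0.14 (edgeR's adjusted p 0.839). The sign of that difference turned with library totals alone and without non-radiated library 3. Foxc1 counts were 0.245, 0.244 and 0.245 times those of Ebf3 in radiated libraries and 0.333, 0.266 and 0.307 times in non-radiated libraries, which did not overlap (exact permutation p 0.1, adjusted 0.133).

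**Figure D2:**
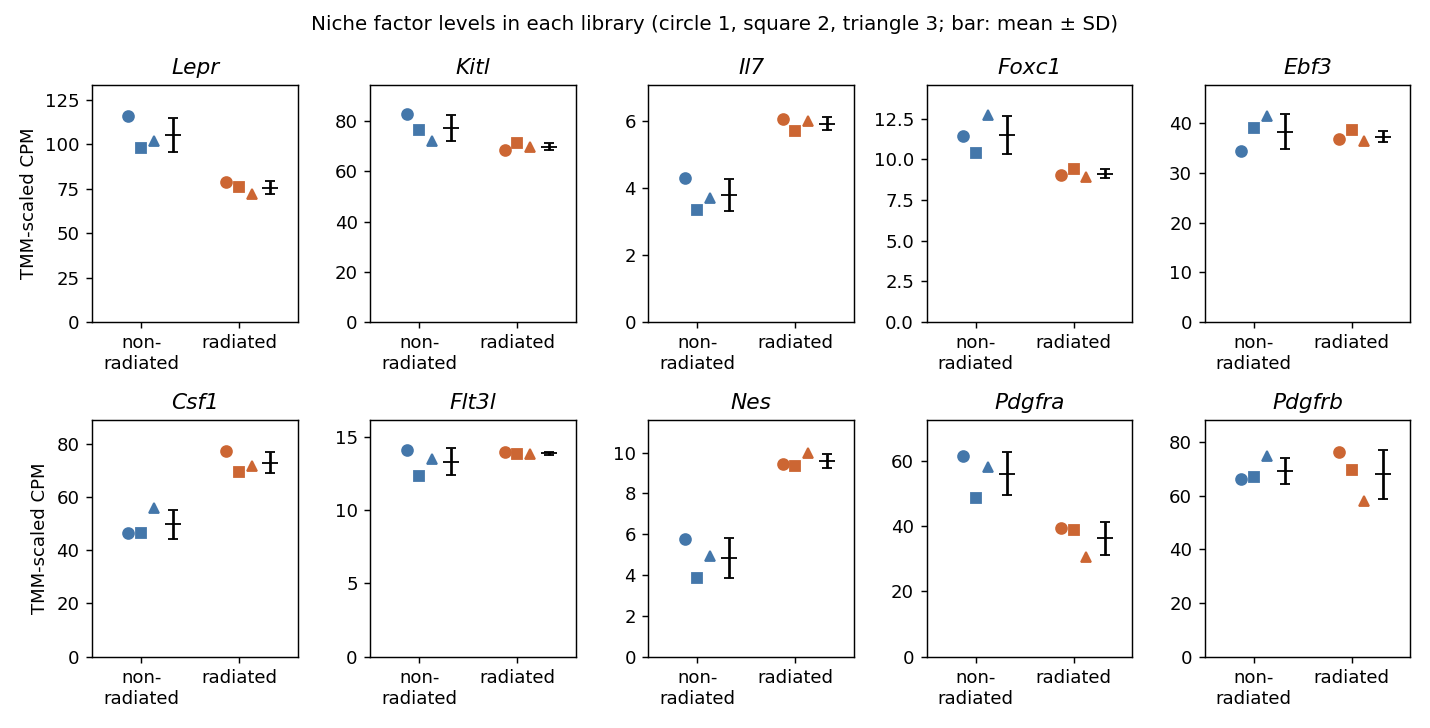
TMM-scaled CPM (vertical axes, from 0) of the 10 niche genes in each non-radiated (blue) and radiated (orange) library, with mean ± SD of 3 libraries as black bars. Lepr, Kitl, Foxc1 and Pdgfra are lower in each radiated library, Il7, Csf1 and Nes are higher, and Ebf3, Flt3l and Pdgfrb overlap.

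Among the cytokines, Csf1 showed a clear rise. This gene encodes the growth factor that macrophages and osteoclast precursors need to survive (ENSMUSG00000014599, mm10 chromosome 3, 107741048 to 107760469). Its level was 46.6, 46.5 and 55.8 CPM in the non-radiated libraries and 77.1, 69.4 and 71.7 CPM in the radiated libraries. The lowest radiated value lay above the highest non-radiated one. The log2 change was 0.55 (SE 0.08, edgeR's adjusted p 0.00378), and the call held in all 15 alternatives.

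Csf1r, the receptor gene of macrophages and osteoclasts, was at 201, 191 and 220 CPM in non-radiated and at 288, 242 and 226 CPM in radiated femur. Its log2 difference of 0.30 was not called (edgeR's adjusted p 0.0855), although 3 of 15 alternatives called it. Csf1 counts relative to Csf1r were 0.231 to 0.254 in the non-radiated femurs and 0.268 to 0.317 in the radiated ones, without any overlap (exact permutation p 0.1, adjusted 0.133). Il34, which encodes the second ligand of that receptor, had a log2 difference of -0.32 (edgeR's adjusted p 0.213). Csf1 counts were 7.96, 7.60 and 7.82 times those of Il34 in non-radiated libraries and 14.9, 12.3 and 15.9 times in radiated ones. That shift of 0.88 on the log2 scale was the widest of the 8 ratios.

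Genes of the cells that respond to Csf1 were counted from lists. Of 10 macrophage genes 7 were called higher and 1 lower, with a median log2 change of 0.47, and had a summed level of 763 to 905 CPM in non-radiated and 985 to 1120 CPM in radiated libraries. The macrophage list held 5 calls with library totals alone. It held 6 with the muscle covariate or without non-radiated library 2 or radiated library 1, and 7 or 8 in the other alternatives. C1qa and C1qb, complement genes of resident macrophages, rose by 0.57 and 0.60 (edgeR's adjusted p 0.00282 and 0.00212), and Cd163, a scavenger receptor gene, fell by 0.91 (0.00193). Of 8 osteoclast genes 1 was called, Atp6v0d2, a proton pump subunit, at 0.33 (edgeR's adjusted p 0.0396). Its call was lost without either of non-radiated libraries 1 and 2 or of radiated libraries 1 and 3, and with library totals alone. The osteoclast list summed to 1090 to 1490 CPM and 1240 to 1470 CPM. Whether a shift in cell types took part in the rise of Csf1 was not tested.

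Il7 encodes the cytokine that B cell progenitors in mouse marrow require (ENSMUSG00000040329, mm10 chromosome 3, 7569994 to 7613760). It was at 4.3, 3.35 and 3.70 CPM in non-radiated libraries, from 157, 84 and 157 counts. In radiated libraries it reached 6.07, 5.69 and 6.00 CPM, from 230, 304 and 268 counts. The groups did not overlap, and the log2 change was 0.64 (SE 0.13, edgeR's adjusted p 0.0190). The call held in 11 of 15 alternatives. It was lost without non-radiated library 2 (adjusted p 0.0752), without non-radiated library 3 (0.0559), without radiated library 1 (0.0735) and with library totals alone (0.0531), with log2 changes of 0.55 to 0.81 over all 15 alternatives. The antisense gene Gm16685, with 18 to 67 counts per library, covers 1056 bases of Il7, and whether the counting used strand is not stated.

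Il7r, the receptor gene of early B and T lineage cells, rose as well, from 37.7, 32.1 and 27.1 CPM to 50.1, 52.1 and 59.6 CPM (log2 change 0.74, SE 0.12, edgeR's adjusted p 0.00551). Its call held in all 15 alternatives. The ratio of Il7 to Il7r counts was 0.105 to 0.137 in non-radiated and 0.101 to 0.121 in radiated libraries. These ranges overlapped (difference -0.10 on the log2 scale, exact permutation p 0.6).

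Kitl encodes stem cell factor, the ligand that stem cells, mast cells and early progenitors bind through Kit (ENSMUSG00000019966, mm10 chromosome 10, 100015630 to 100100413). It was at 82.9, 76.7 and 72.3 CPM in non-radiated femurs and 68.4, 71.3 and 69.8 CPM in radiated ones. The groups did not overlap, with 71.3 CPM as the highest radiated and 72.3 CPM as the lowest non-radiated value. The log2 difference of -0.15 (95% interval -0.28 to -0.01) was not called (edgeR's adjusted p 0.202), and with library totals alone its sign was positive. Kit itself fell from 75.5, 82.6 and 71.5 CPM to 58.1, 57.0 and 58.1 CPM (log2 change -0.40, SE 0.06, edgeR's adjusted p 0.00454), a call lost with library totals alone. The ratio of Kitl to Kit counts was 1.10, 0.928 and 1.01 in non-radiated femurs and 1.18, 1.25 and 1.20 in radiated ones, without any overlap (exact permutation p 0.1, adjusted 0.133).

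Flt3l encodes the cytokine that dendritic cell and lymphoid progenitors receive through Flt3 (ENSMUSG00000089989, mm10 chromosome 7, 45131188 to 45136432). Its values were 14.1, 12.3 and 13.5 CPM, and then 14.0, 13.8 and 13.8 CPM, inside the non-radiated range. The log2 difference was 0.06, with a 95% interval of -0.13 to 0.25 (edgeR's adjusted p 0.764), and it was negative without non-radiated library 2. The ribosomal protein gene Rpl13a shares 5044 bases and the strand with Flt3l in the annotation, so the counts of Flt3l are uncertain. Flt3 fell from 15.3, 16.5 and 15.9 CPM to 10.1, 10.7 and 9.70 CPM (log2 change -0.65, SE 0.08, edgeR's adjusted p 0.00200), a call also lost with library totals alone. Flt3l counts thus went from 0.921, 0.746 and 0.852 to 1.39, 1.29 and 1.42 times those of Flt3, with no overlap and a difference of 0.71 on the log2 scale (exact permutation p 0.1, adjusted 0.133).

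**Figure D3:**
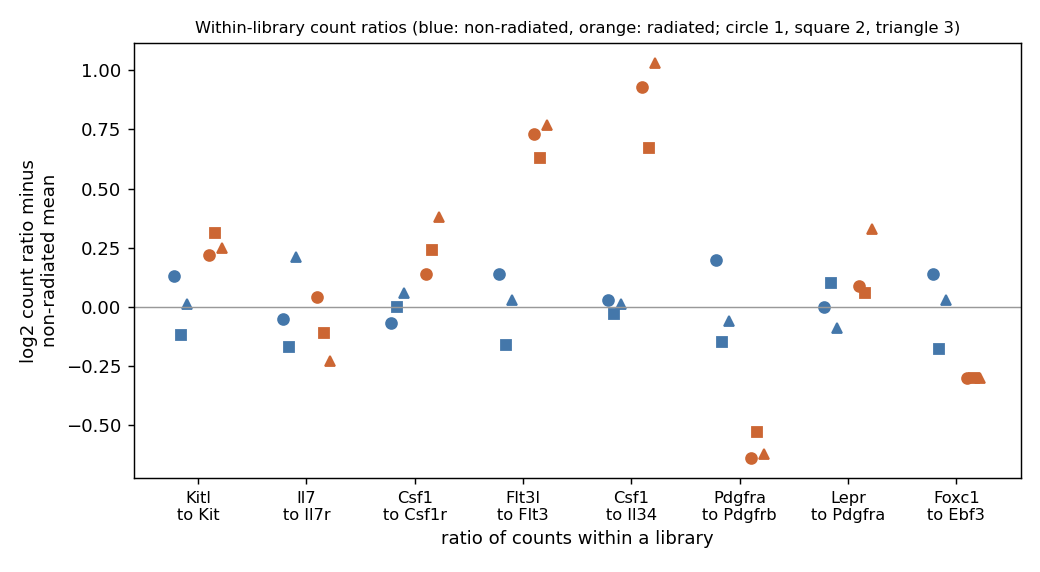
Log2 ratio of the counts of 2 genes in the same library, minus the mean of the non-radiated libraries (vertical axis), for 8 ratios (horizontal axis); blue is non-radiated and orange radiated. The Csf1 to Il34 and Flt3l to Flt3 ratios lie above all non-radiated libraries, Pdgfra to Pdgfrb and Foxc1 to Ebf3 lie below, and Il7 to Il7r overlaps.

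The 11 partner genes were the receptors of these cytokines, the ligands of these receptors, and Cxcr4, whose ligand gene Cxcl12 is outside the niche set. Of the partners 3 were called higher and 3 lower, with a median of 0.30 beside 0.00 for all genes. Lep, the leptin gene of fat cells, had 5, 3 and 3 counts in non-radiated and 56, 94 and 55 counts in radiated libraries. The ratio of the scaled sums was 14.2, with an exact 95% interval of 7.80 to 29.0 for counting error only, and the gene was called (edgeR's adjusted p 0.000185). Of 10 adipocyte genes 9 were also called higher, and their sum went from 206 to 220 CPM up to 610 to 880 CPM. Of the growth factor genes for the Pdgf receptors, Pdgfc was called higher (0.40, edgeR's adjusted p 0.0247) and Pdgfd lower (-0.47, 0.0496). The Pdgfc call was lost with library totals alone and without any 1 of non-radiated libraries 1 and 2 and radiated libraries 1 and 3. That of Pdgfd was lost without each of the 6 libraries in turn and with the muscle covariate. Library totals, with or without AY036118 and Gm26917, lost the Pdgfd call too. Pdgfa (0.53, edgeR's adjusted p 0.0538), Pdgfb (0.05, 0.807), Il2rg (0.32, 0.0597) and Cxcr4 (0.01, 0.938) were not called. Of 15 alternatives 5 called Pdgfa, among them the replicate number as a block, and 4 called Il2rg.

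Nes encodes nestin, an intermediate filament of perivascular stromal cells that is also found in young muscle, endothelium and Schwann cells (ENSMUSG00000004891, mm10 chromosome 3, 87971078 to 87980451). It was at 5.76, 3.83 and 4.93 CPM in non-radiated and at 9.45, 9.36 and 9.97 CPM in radiated libraries, from 96 to 210 and 358 to 500 counts. All 3 radiated values lay above the highest non-radiated one. Its log2 change of 0.98 (SE 0.15, edgeR's adjusted p 0.00417) was the largest among the 10, and the call held in all 15 alternatives, with values of 0.83 to 1.14.

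Markers of other cells that can express Nes were read beside it. Nes was highest in radiated library 3, where the 12 muscle genes summed to 196 CPM, within the non-radiated range of 166 to 342 CPM. With the muscle sum as a covariate Nes was still called, but that sum was itself high in radiated libraries 1 and 2. Of the 12 muscle genes 0 were called by edgeR or limma-voom, and 0 of the 10 with an adjusted p by DESeq2, although all 12 had an unadjusted p under 0.05, 10 were called with the replicate number as a block, and 12 with no filter or with library totals alone. Without radiated library 3 there were 9 muscle calls, and without radiated library 1 there was 1. Of 6 Schwann cell genes tested 2 were called higher and 1 lower, with a median of -0.21; 2 were called with the replicate block, 1 without radiated library 1 and 0 with library totals alone. Sox10, a defining transcription factor gene of that cell, was under the filter on low counts. Whether muscle or Schwann cells took part in the rise of Nes was not tested.

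Mural cells, the pericytes and smooth muscle around vessels, share Pdgfrb and Nes. Of 9 mural genes tested 4 were called higher and 0 lower, with a median log2 change of 0.34. The sum of the 10 genes listed was 173 to 202 CPM in non-radiated and 204 to 237 CPM in radiated libraries. Acta2, smooth muscle actin, was at 3.56, 2.47 and 4.10 CPM and then at 12.4, 11.1 and 10.4 CPM (log2 change 1.72, SE 0.17, edgeR's adjusted p 0.000517). Tagln, an actin-binding protein gene, rose by 2.40 (edgeR's adjusted p 0.000446) and Mcam, the CD146 gene, by 0.77 (0.00639). Rgs5, a pericyte gene, had 0.34 (edgeR's adjusted p 0.0342), a call lost with the replicate block, the muscle covariate and library totals alone. It was also lost without 5 of the 6 libraries in turn, all but non-radiated library 1. Not called were Myh11 (0.71, edgeR's adjusted p 0.0661), Notch3 (0.28, 0.183), Kcnj8 (0.18, 0.481), Cspg4 (0.06, 0.868) and Abcc9 (-0.11, 0.488). Myh11 was called in 4 of 15 alternatives and Notch3 in 1. Whether mural cells took part in the rise of Nes was not tested.

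Other genes of the marrow niche also moved in both directions. Of 24 listed 23 were tested, 5 were called higher and 3 lower, with a median of 0.16. Angpt1, a ligand that stromal cells present to vessels and stem cells, fell from 43.6, 45 and 38.0 CPM to 20.7, 22.2 and 19.8 CPM (log2 change -1.01, SE 0.08, edgeR's adjusted p 0.000144). Prrx1, a limb mesenchyme transcription factor gene, rose by 0.58 (edgeR's adjusted p 0.00396). Ebf1, which serves both stroma and B cells, rose by 0.84 (0.000791), and Lpl, a lipase gene shared with fat cells, by 1.08 (0.000147). These 4 calls held in all 15 alternatives. Cxcl12, the gene after which the reticular cells are named, was at 1010, 1050 and 1050 CPM and then at 884, 888 and 779 CPM. Its log2 difference of -0.28 was not called (edgeR's adjusted p 0.0515), but 6 of the 15 alternatives called it. Of 10 osteoblast genes 0 were called higher and 4 lower, with a median of -0.56, 7 were called with the replicate block, 8 with no filter, 2 with library totals alone and 1 with the muscle covariate. Runx2, the master regulator of that lineage, was among them at -0.47 (edgeR's adjusted p 0.00396), a call lost with library totals alone (0.639). Col1a1, which made up most of the list's sum, was at -0.61 (edgeR's adjusted p 0.047), a call that held in 7 of 15 alternatives.

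**Figure D4:**
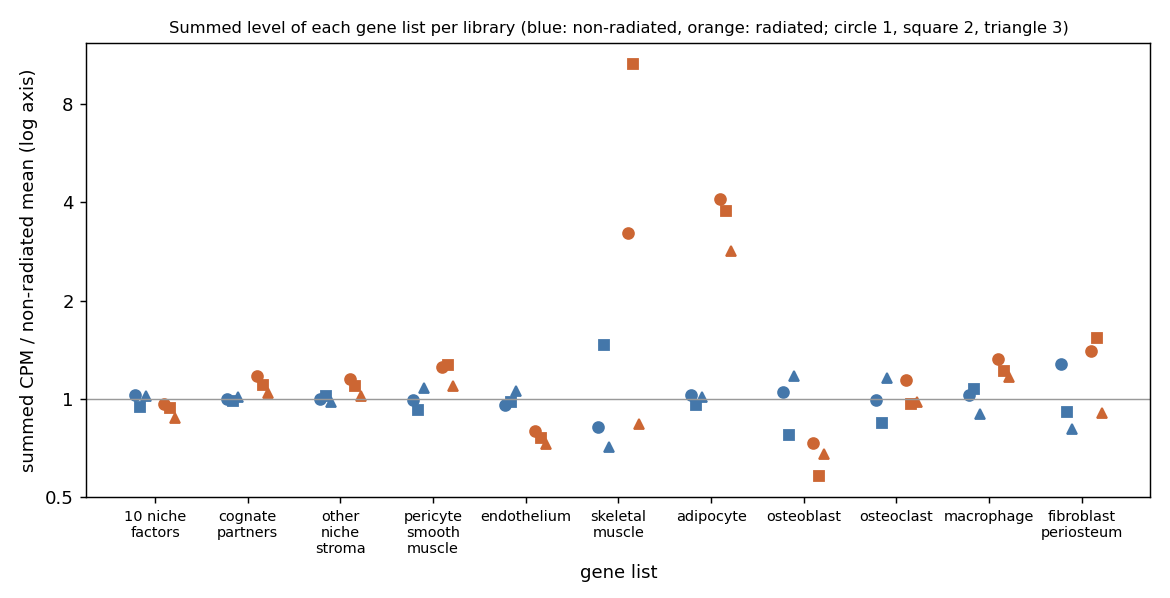
Summed CPM of each gene list per library, divided by the non-radiated mean (vertical axis, log scale), for the 10 niche genes, their partners and the marker lists other than that of Schwann cells (horizontal axis); blue is non-radiated and orange radiated. The adipocyte sum is higher and the osteoblast sum is lower in each radiated library, while the muscle sum is high in radiated libraries 1 and 2 alone. Most of the osteoblast sum is Col1a1.

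The order of the genes by level was read per kilobase of gene length, since longer genes collect more reads. In non-radiated femur Lepr led with 15 ± 1.29 CPM per kilobase (SD, n = 3), followed by Kitl at 13.4 ± 0.932 and Pdgfrb at 12.7 ± 0.895. The library values of Lepr overlapped with those of Kitl, and those of Kitl with those of Pdgfrb, while Pdgfrb lay above Csf1 in each non-radiated library. Csf1 at 9.43 ± 1.01, Pdgfra at 8.32 ± 0.978 and Ebf3 at 7.63 ± 0.709 CPM per kilobase came next and overlapped in turn. Flt3l at 3.59 and Foxc1 at 2.91 CPM per kilobase stood apart from their neighbours. Nes at 0.754 ± 0.151 and Il7 at 0.668 ± 0.0850 CPM per kilobase were the lowest and overlapped.

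In radiated femur the leading level per length was that of Csf1, at 13.8 ± 0.754 CPM per kilobase, and it overlapped with Pdgfrb at 12.4 ± 1.68, which overlapped with Kitl at 12.1 ± 0.253. Lepr followed at 10.7 ± 0.515 CPM per kilobase, and its 3 library values lay below those of Kitl. Ebf3 at 7.43 and Pdgfra at 5.39 ± 0.755 CPM per kilobase no longer overlapped, and Flt3l at 3.74 and Foxc1 at 2.31 CPM per kilobase again stood apart. Nes at 1.49 ± 0.0510 stood above Il7 at 1.05 ± 0.0360 CPM per kilobase in every library.

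**Figure D5:**
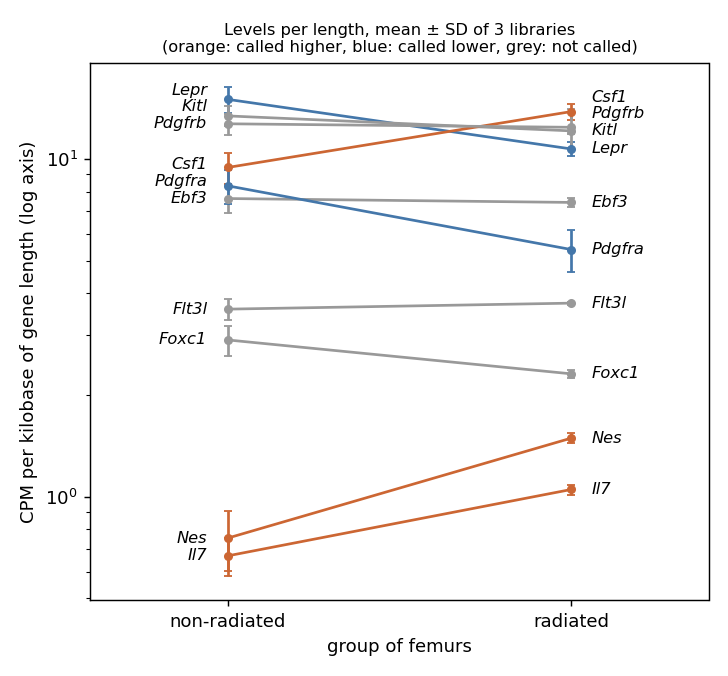
CPM per kilobase of gene length (vertical log axis) of the 10 niche genes in both groups (horizontal axis), as mean ± SD of 3 libraries. Lepr goes from 15 to 10.7 and Csf1 from 9.43 to 13.8 CPM per kilobase, so that their lines cross.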

How the data were processed

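Gene counts from 6 mouse femur libraries, 3 radiated and 3 non-radiated, were analysed. Per the submitters' processing notes, bcl2fastq, STAR 2.5.2b, Subread and featureCounts were used with build mm10; the annotation, filters and use of strand are not given in the sources used here. Per the labels' protocols a stranded mRNA kit was used. The deposited counts are whole numbers per gene. The RPKM values deposited by the authors rest on a constant per library that is 5.55 to 6.91 times the summed gene counts, so they were not used; levels per kilobase were computed from the counts and the deposited gene length.

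Groups came from the labels. Nothing says that replicates are separate animals, so p-values measure the spread between these libraries. On raw counts at library totals, with AY036118 included, replicate pairs differed by more than sampling noise (chi-square per degree of freedom 16.6 to 580). The highest values, 492 and 580, were those of the pairs with non-radiated library 2. The test was edgeR 4.0.16 (R 4.3.3): filterByExpr (minimum count 10, minimum total 15), TMM, glmQLFit and glmQLFTest on group, and Benjamini-Hochberg adjustment over 18757 genes. The 95% intervals use the fit's 9.18 degrees of freedom. Ratios of counts (0.5 added) were tested by exact permutation, two-sided, over all 20 labelings. The fit was tested on simulated counts. Deviations from the group means correlated at 0.166, 0.277 and 0.187 across genes for libraries of the same number and at -0.170 to -0.00824 for others. Such deviations cancel out within a group, so the negative values follow from the positive ones and are no separate evidence. Same-numbered libraries were treated as pairs in an alternative fit with that block.

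The remaining alternatives were size factors of DESeq2 1.42.0, library totals with and without AY036118 and Gm26917, no filter, a filter at 1 mean CPM, limma-voom (limma 3.58.1), the Wald test of DESeq2, the muscle sum as a covariate, leaving out each library, and 2 added to counts in ratios. The genes and the 12 lists (133 entries, 1 found by gene ID) were chosen with earlier results of these data known. Open to naming were the 10 genes, their partners, both sides of each ratio and up to 4 called genes with the smallest p per list. So were, for each called niche gene, the 2 genes of at least 5 mean CPM with the nearest profile. Not every list gene open to naming by that rule was named. Sox10, Cdh5, Pecam1, Cxcl12, the mural genes not called and the overlapping genes Gm16685 and Rpl13a were named outside that rule after their values were seen. An item withheld from this text is not reported here.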

Additional observations from a re-analysis of the deposited data

How the results depend on the processing

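Csf1 and Nes were called in all 15 alternatives, Lepr and Pdgfra in 14 and Il7 in 11. With library totals alone, where the median of all genes shifted to 0.19 and 85.4% of calls were higher against 58.5% with TMM, 2 niche genes were called and 0 called lower. Lepr (-0.30) and Pdgfra (-0.46) were still below 0 there, and so further below that median. Without 1 library the number of niche genes called was 4 to 5. The replicate block called 5 niche genes and changed no call among them. Signs turned for genes that were not called: with library totals alone for Kitl (0.04), Ebf3 (0.16) and Pdgfrb (0.16), and when 1 library was left out for Ebf3 (-0.11 to 0.02, positive without non-radiated library 3), Pdgfrb (-0.12 to 0.07, positive without that library or radiated library 3) and Flt3l (-0.01 to 0.10, negative without non-radiated library 2). The difference in the log2 ratio of Il7 to Il7r ran from -0.18 to 0.01, positive without non-radiated library 3. Of 165 recomputed counts of called genes in the other lists 136 stayed within 1.5 times; the cause was not tested. Over all genes 1463 were called, and 764 without radiated library 1, 819 without non-radiated 2 or 905 without non-radiated 1. Il7 and Nes, with the fewest counts, have the widest intervals among the called genes.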

Other observations

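Vessel lining cells, which also make Kitl, were covered by 10 endothelial genes. Of these 0 were called higher and 2 lower, with a median log2 change of -0.02. With library totals without AY036118 and Gm26917 there were 4 calls, with Cdh5 and Pecam1 called higher. There were 3 with the replicate block, with no filter or with the Wald test of DESeq2, each with Cdh5 called higher. Library totals alone gave 1. Vwf, the von Willebrand factor gene that megakaryocytes share, was at 341 ± 28.0 CPM in non-radiated and 134 ± 7.17 CPM in radiated libraries (SD, n = 3 each; log2 change -1.35, edgeR's adjusted p 1.43e-05), and Tek, the receptor gene for Angpt1, was at 17.0 ± 0.398 and 11.2 ± 0.840 CPM (log2 change -0.60, edgeR's adjusted p 0.00325). The Tek call was lost with library totals alone (adjusted p 0.479). The sum of the list was 775 to 856 CPM in non-radiated and 588 to 642 CPM in radiated libraries, and Vwf carried that difference: the other 9 genes, summed without it in a check chosen after seeing the data, were at 462, 450 and 487 CPM and at 510, 472 and 461 CPM, which overlap. Of 10 fibroblast and periosteum genes 1, Mfap5, was called higher. The list held 3 calls with the replicate block, 4 with library totals alone or without radiated library 3, 5 with no filter, 2 with the Wald test of DESeq2, and 0 with limma-voom, with a filter at 1 mean CPM or without non-radiated library 2 or 3. The list's median was 0.42, and its sum was 435 to 685 CPM and 487 to 822 CPM. The Mfap5 call (edgeR's adjusted p 0.0348) was lost with limma-voom, with the muscle covariate, without each non-radiated library in turn and without radiated library 2, which held 103 of its counts against 25 and 22 in the other radiated libraries.

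Profiles over the 6 libraries were compared by the root mean square difference of log2 CPM, each gene centred on its own mean, among 11902 genes at 5 CPM or more on average. Nearest to Lepr were Runx2 (0.048) and Il6st (0.049). Csf1 was nearest to Setbp1 (0.031) and Adcy3 (0.035), and Il7 to Pla2r1 (0.042) and Endou (0.045). For Nes the nearest were Nkd2 (0.078) and Lef1 (0.094), and for Pdgfra they were Chst13 (0.066) and Fbxl2 (0.070). With 6 libraries many genes lie about as close, so these names are a description only.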
